A study of Homo sapiens with 17 samples.

Results

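The comparison described here sets RNA from HepG2 cells after 4 days with 10 µM 5-azacytidine against RNA from HepG2 cells after 4 days without the drug (0 µM), over all genes. It takes 6 of the 17 libraries of the series, 3 per dose, chosen by their labels alone. HepG2 is an established human liver carcinoma line that still makes many hepatocyte proteins, and all groups are of that 1 line. The other 11 libraries are RNA-seq at 2 µM (3 libraries) and ATAC-seq, which reads open chromatin, at 10 µM (2 libraries), 2 µM (3) and 0 µM (3). The labels call the libraries biological replicates and do not say that each came from its own culture, so every p measures the spread between these libraries. Of 63187 genes in the count table, 18999 had enough reads to be tested.

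5-Azacytidine is a cytidine analogue that cells phosphorylate and build into RNA and, after reduction, into DNA. In DNA it traps DNA methyltransferases, so methylation is lost as cells divide, and genes held silent by promoter methylation can be transcribed again. In RNA it disturbs processing and translation. Hepatocytes are known for secreting most plasma proteins, under a small set of liver transcription factors, and HepG2 cells combine that secretion with rapid division.

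Promoter sequences are shown for genes whose change the results below turn on, as RefSeq gives them (GRCh38.p14, 250 bases before the start of the gene to 50 after it, 5′ to 3′ on the strand of the gene). The first 5 belong to genes that rose at 10 µM and had an ATAC peak over this window that rose as well, 4 of them near silence at 0 µM, and their capitals mark CpG, the dinucleotide that DNA methyltransferases act on. NTNG1 (chr1:107139838-107140137, plus strand) encodes a netrin-like protein of axons and holds 15 CpG. ADGRF4 (chr6:47698330-47698629, plus strand) encodes an adhesion receptor and holds 3. KLHL29 (chr2:23384929-23385228, plus strand) encodes a kelch protein and holds 43. SNPH (chr20:1266044-1266343, plus strand) encodes syntaphilin, which anchors mitochondria in axons, and holds 23. BCL2A1 (chr15:79971147-79971446, minus strand) encodes BFL-1, a protein that blocks apoptosis, and holds 2.
NTNG1: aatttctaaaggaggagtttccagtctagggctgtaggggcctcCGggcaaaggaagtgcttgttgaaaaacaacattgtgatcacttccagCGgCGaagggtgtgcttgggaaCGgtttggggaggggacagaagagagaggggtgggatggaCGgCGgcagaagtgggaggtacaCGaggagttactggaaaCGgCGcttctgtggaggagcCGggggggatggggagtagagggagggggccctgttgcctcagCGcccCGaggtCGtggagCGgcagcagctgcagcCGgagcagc
ADGRF4: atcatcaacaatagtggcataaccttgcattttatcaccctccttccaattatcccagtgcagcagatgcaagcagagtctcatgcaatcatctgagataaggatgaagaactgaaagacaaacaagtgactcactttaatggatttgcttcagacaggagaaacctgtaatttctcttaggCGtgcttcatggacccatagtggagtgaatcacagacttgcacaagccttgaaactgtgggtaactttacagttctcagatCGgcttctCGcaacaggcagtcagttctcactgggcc
KLHL29: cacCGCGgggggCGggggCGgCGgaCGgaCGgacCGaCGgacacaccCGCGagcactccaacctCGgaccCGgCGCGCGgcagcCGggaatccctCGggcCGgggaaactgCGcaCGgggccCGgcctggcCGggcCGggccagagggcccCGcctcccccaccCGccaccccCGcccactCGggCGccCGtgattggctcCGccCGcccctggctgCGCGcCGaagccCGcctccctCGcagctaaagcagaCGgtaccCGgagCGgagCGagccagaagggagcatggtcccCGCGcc
SNPH: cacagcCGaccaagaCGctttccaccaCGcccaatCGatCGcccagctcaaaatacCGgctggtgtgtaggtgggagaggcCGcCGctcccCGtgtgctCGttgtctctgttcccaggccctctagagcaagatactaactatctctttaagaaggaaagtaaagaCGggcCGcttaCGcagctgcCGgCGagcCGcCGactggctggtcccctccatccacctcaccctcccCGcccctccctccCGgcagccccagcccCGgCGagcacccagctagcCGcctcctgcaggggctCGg
BCL2A1: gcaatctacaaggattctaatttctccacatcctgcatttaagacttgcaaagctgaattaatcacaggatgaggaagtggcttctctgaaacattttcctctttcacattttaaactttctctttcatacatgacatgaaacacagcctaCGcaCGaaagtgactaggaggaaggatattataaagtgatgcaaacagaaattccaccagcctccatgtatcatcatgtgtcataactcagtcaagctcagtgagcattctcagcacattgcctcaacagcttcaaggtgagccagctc

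The other 3 belong to genes that fell. NUF2 (chr1:163321704-163322003, plus strand) encodes a kinetochore protein and CENPA (chr2:26785806-26786105, plus strand) the histone variant of centromeres, and capitals mark TTTGAA on either strand, the cell cycle homology region of many mitotic promoters. AHSG (chr3:186612810-186613109, plus strand) encodes the plasma protein fetuin-A, and capitals mark CAAAGTCCA on either strand, a site that the liver factor HNF4A can bind.
NUF2: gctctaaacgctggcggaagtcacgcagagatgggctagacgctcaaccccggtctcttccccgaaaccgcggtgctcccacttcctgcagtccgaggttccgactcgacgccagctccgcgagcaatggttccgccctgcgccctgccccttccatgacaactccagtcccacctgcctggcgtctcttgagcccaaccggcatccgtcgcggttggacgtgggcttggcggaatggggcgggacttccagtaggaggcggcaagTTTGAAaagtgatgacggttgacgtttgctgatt
CENPA: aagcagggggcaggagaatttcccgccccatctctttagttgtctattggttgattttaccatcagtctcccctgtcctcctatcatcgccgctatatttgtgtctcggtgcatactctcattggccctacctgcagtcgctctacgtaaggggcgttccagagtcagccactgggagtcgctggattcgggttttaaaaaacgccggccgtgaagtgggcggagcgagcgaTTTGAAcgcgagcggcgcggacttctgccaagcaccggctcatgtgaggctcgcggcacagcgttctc
AHSG: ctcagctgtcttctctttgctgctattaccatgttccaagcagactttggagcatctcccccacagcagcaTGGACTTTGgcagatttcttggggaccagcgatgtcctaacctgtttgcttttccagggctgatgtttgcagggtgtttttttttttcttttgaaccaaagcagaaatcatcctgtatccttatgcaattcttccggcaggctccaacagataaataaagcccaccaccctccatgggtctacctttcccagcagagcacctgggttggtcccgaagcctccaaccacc

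Of the 18999 genes tested, 4371 rose (23%), 4767 fell (25.1%) and 9861 did not pass, where rose and fell mean an adjusted p under 0.05. At least a doubling was seen in 2776 of the genes that rose, and a loss of the same size or more in 3603 of those that fell. A change of 4-fold or more was seen in 1211 rises and 1922 falls, and one of 16-fold or more in 412 rises and 570 falls. The 3 libraries at 10 µM lay wholly above those at 0 µM in 5672 genes (29.9%) and wholly below in 5516 (29%). When libraries were scaled by total counts alone, the median log2 change over genes shifted by 0.253, with 5788 rises and 3747 falls, so that 60.7% in place of 47.8% of calls were rises, and changes below are relative to the main scaling, under which the median log2 change was -0.02.

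The libraries held similar numbers of counted reads (39904820, 46430168 and 45702708 at 10 µM, against 35553052, 41174097 and 44220965 at 0 µM). The first principal component of the RNA, with 63.5% of the variance, set the 10 µM libraries apart. The 0 µM libraries differed among themselves in several classes of RNA: replication-dependent histone RNA took 1.39%, 0.971% and 0.374% of counts in replicates 1 to 3, mitochondrially encoded mRNA 0.0664%, 0.106% and 0.271%, a pair of signal recognition particle RNA genes 3.31%, 1.36% and 0.961%, a pair of long nuclear RNAs 0.0737%, 0.101% and 0.306%, and mRNA of secreted liver proteins 4.22%, 2.8% and 5.9%. Their part in the results was not tested, and the counts of rises and falls without 0 µM replicate 3 were 4589 and 4840. Levels are in CPM, the reads of a gene set against the scaled total of its library, as 3 library values or as mean ± SD (n = 3 per dose); they are not divided by gene length and are not compared between genes. Genes were named by a rule given with the processing, and the exceptions listed there were chosen after their values were seen. For most named genes the rule required no overlap between the groups or took the smallest adjusted p. Lack of overlap stated below for such genes follows in large part from that choice and is a description only. In bulk RNA, fewer cells of a type and less RNA per cell cannot be told apart.

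**Figure D1:**
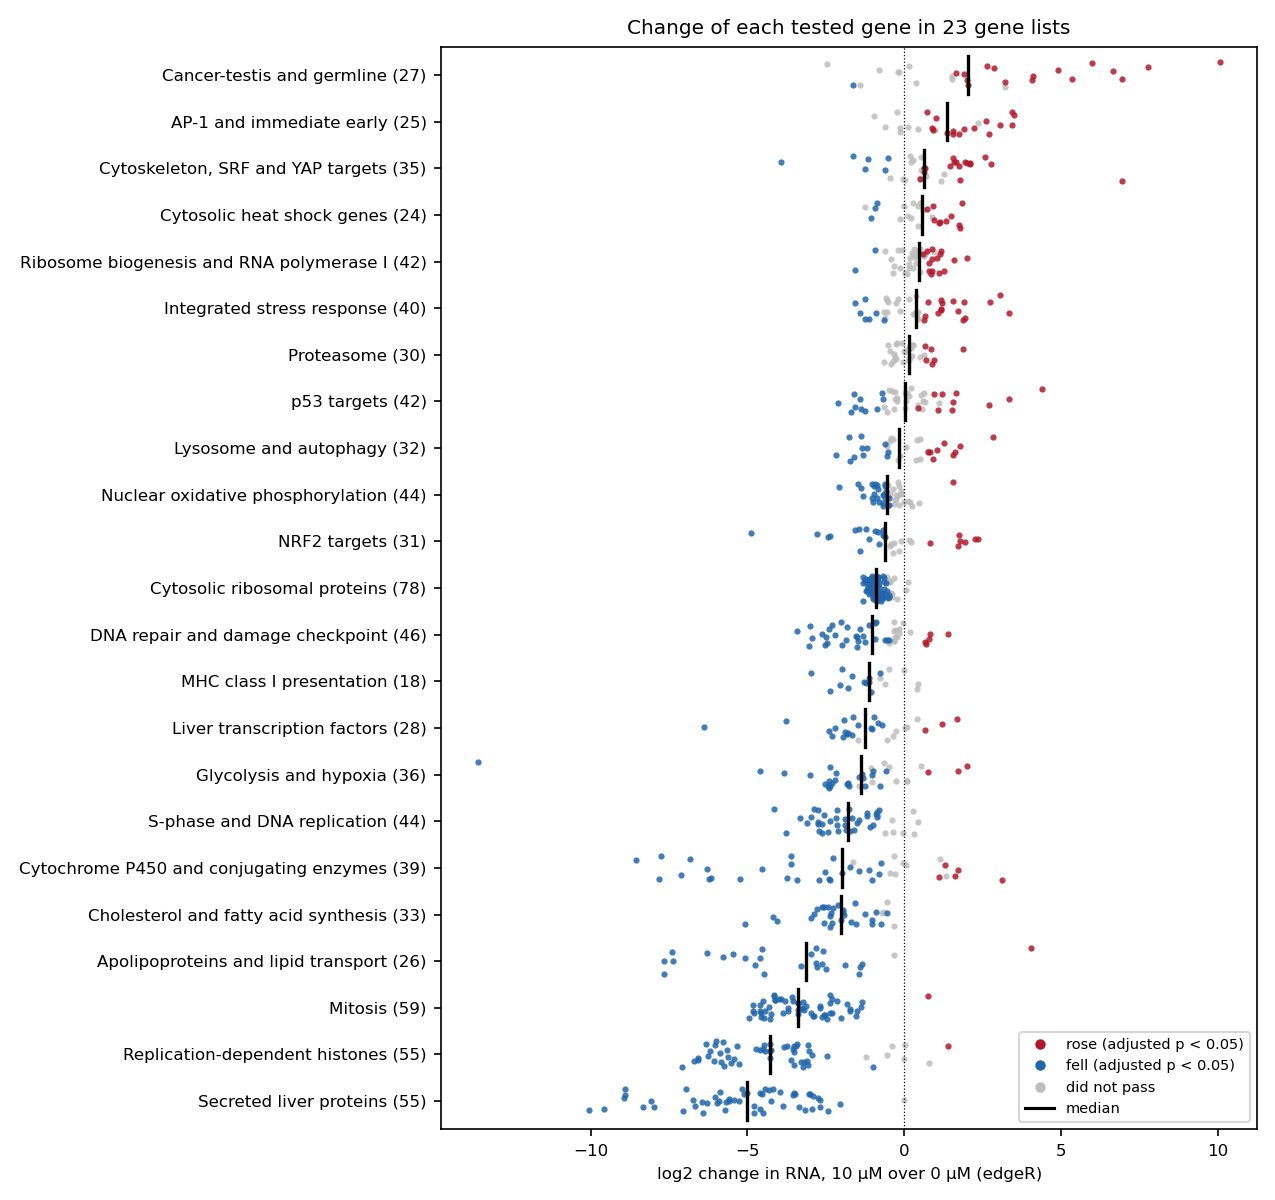
Change of each tested gene in 23 gene lists. The horizontal axis is the log2 change in RNA at 10 µM over 0 µM, each point is 1 gene (red rose, blue fell, grey did not pass), the black bar is the median of the list, and the number of tested genes stands in parentheses. Secreted liver proteins, histones and mitosis genes lie furthest left, with medians of -5.02, -4.26 and -3.38, and AP-1 genes lie to the right, with a median of 1.37. Of 76 listed cancer-testis genes the 27 that passed the filter are drawn.

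Of the enzymes that the drug traps, DNMT3B fell. DNMT1 and DNMT3A had smaller changes that lay near the threshold, DNMT3A just past it and DNMT1 not. DNMT1, the maintenance DNA methyltransferase (ENSG00000130816.17, chr19:10133346-10194953), had 85.7, 88.2 and 87.2 CPM in the 10 µM libraries, against 143, 121 and 97.1 CPM in the 0 µM libraries. Each 10 µM library was below each 0 µM library, yet DNMT1 did not pass (log2 change -0.47, SE 0.185, adjusted p = 0.0525), although it fell without 0 µM replicate 3. DNMT3A, a de novo methyltransferase, averaged 63.7 ± 6.27 CPM at 10 µM and 91.4 ± 13.2 CPM at 0 µM and fell (adjusted p = 0.0368), a call that was lost without any 1 of the 10 µM libraries, without 0 µM replicate 1 or 2, under DESeq2, under total counts and without the filter on low counts. DNMT3B, the other de novo enzyme (ENSG00000088305.19, chr20:32762385-32809356), had 9.98, 11.6 and 9.58 CPM in the 10 µM libraries, against 37.2, 30.1 and 21.7 CPM in the 0 µM libraries. Each 10 µM library was below each 0 µM library, and DNMT3B fell (log2 change -1.51, SE 0.225, adjusted p = 0.000134). UHRF1, which brings DNMT1 to newly copied DNA (ENSG00000276043.5, chr19:4903080-4962154), had 26.4, 25.9 and 20.8 CPM in the 10 µM libraries, against 229, 209 and 55.6 CPM in the 0 µM libraries, and fell with no overlap (log2 change -2.75, SE 0.412, adjusted p = 0.00014). In the list of 19 methylation genes, 3 rose (15.8%) and 6 fell (31.6%), against 23% and 25.1% of all genes, with a median log2 change of -0.04. The risers were MBD1, which binds methylated DNA (152 CPM at 10 µM against 49.2 CPM at 0 µM), TDG, a glycosylase of active demethylation (33.1 CPM at 10 µM against 20.6 CPM at 0 µM), and UHRF2, a relative of UHRF1 (85 CPM at 10 µM against 53 CPM at 0 µM). The count of 3 was 1 without 0 µM replicate 1 or without 10 µM replicate 2, and TDG did not pass without 0 µM replicate 3 either. TET1, which oxidises methylcytosine, fell (8.17 CPM at 10 µM against 53.6 CPM at 0 µM), as did the chromatin remodeller HELLS (26.3 CPM at 10 µM against 105 CPM at 0 µM).

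Genes that handle the drug and pyrimidines fell more often than they rose. Of 28 tested, 1 rose (3.57%) and 11 fell (39.3%), against 23% and 25.1% of all genes (median -0.40). Without 0 µM replicate 2 or 3, 2 rose. UPP1, a uridine phosphorylase, was the riser, with 83.7, 74.3 and 88.5 CPM at 10 µM, against 9.31, 14.1 and 8.8 CPM at 0 µM (log2 change 2.94, SE 0.323, adjusted p = 1.20e-05). Among the falls, RRM2, the ribonucleotide reductase subunit that limits DNA precursors, had 23.4, 46.1 and 40.7 CPM at 10 µM, against 322, 386 and 181 CPM at 0 µM. The groups did not overlap for either gene. TYMS and TK1, which make thymidine nucleotides, averaged 8.91 against 55 CPM and 6.61 against 94 CPM at 10 against 0 µM. SLC28A1, a nucleoside importer, stood at 0.0538 CPM at 10 µM against 6.29 CPM at 0 µM (log2 change -6.75, SE 1.08, adjusted p = 0.000238).

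The title of the series names BFL-1, the protein of BCL2A1, and SQOR, and both genes rose. BCL2A1 (ENSG00000140379.9, chr15:79960892-79971196) had 11.4, 6.84 and 13.8 CPM in the 10 µM libraries, against 0.594, 1.24 and 1.2 CPM in the 0 µM libraries. The lowest 10 µM library was more than 5 times the highest 0 µM library (log2 change 3.39, SE 0.551, adjusted p = 0.000269). SQOR, which oxidises hydrogen sulfide in mitochondria (ENSG00000137767.14, chr15:45631148-45691281), had 40.3, 33.7 and 39.4 CPM in the 10 µM libraries, against 19.2, 17.9 and 18.8 CPM in the 0 µM libraries. The SQOR libraries of each dose lay close together and did not overlap (log2 change 1.02, SE 0.222, adjusted p = 0.00209). Among the 27 tested genes of sulfide and sulfur amino acid metabolism SQOR was 1 of 6 that rose, while 15 fell (median -0.80). These were 22.2% and 55.6%, against 23% and 25.1% of all genes. MPST and TST, which carry sulfur between proteins in the mitochondrion, averaged 58 against 180.3 CPM and 24.5 against 66.6 CPM at 10 against 0 µM, and both fell. GCLC and GCLM, the subunits of the enzyme that starts glutathione synthesis, rose to 3.35 and 3.8 times their 0 µM levels in the fit. MAT1A, the liver enzyme that makes S-adenosylmethionine, the methyl donor of DNA methylation, had 10.4, 14.4 and 11.3 CPM at 10 µM, against 212, 145 and 113 CPM at 0 µM (log2 change -3.70, SE 0.281, adjusted p = 7.68e-07).

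Within the BCL2 family, 7 of 17 tested members rose and 2 fell, against 23% and 25.1% of all genes tested. Of the anti-apoptotic members, MCL1 averaged 1002 ± 57.9 CPM at 10 µM and 373 ± 138 CPM at 0 µM (adjusted p = 0.000524) beside BCL2A1, and BCL2L2 rose (92 CPM at 10 µM against 61.7 CPM at 0 µM), though not without 0 µM replicate 1 or 2 or 10 µM replicate 1 or 3. PMAIP1, the pro-apoptotic protein NOXA (ENSG00000141682.12, chr18:59899996-59904305), had 34.8, 25.2 and 23.6 CPM in the 10 µM libraries, against 0.5, 2.03 and 1.38 CPM in the 0 µM libraries. No libraries overlapped, and the fitted change was the largest of the family (log2 change 4.40, SE 0.586, adjusted p = 5.65e-05). BAK1, which opens the outer mitochondrial membrane, averaged 105 ± 5.54 CPM at 10 µM and 36.1 ± 7.29 CPM at 0 µM (adjusted p = 0.000195), and the sensitiser BIK 8.16 ± 2.58 CPM at 10 µM and 2.87 ± 0.18 CPM at 0 µM (adjusted p = 0.00344). HRK, with very few reads, rose as well (0.371 CPM at 10 µM against 0.0257 CPM at 0 µM, log2 change 3.64, which was 6.99 without 0 µM replicate 2). The falls were BAX, the partner of BAK1 (44.2 CPM at 10 µM against 70.7 CPM at 0 µM), and BMF (8.54 CPM at 10 µM against 22.6 CPM at 0 µM). BMF did not pass without 0 µM replicate 3 or 10 µM replicate 3, and neither gene passed without 10 µM replicate 2.

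Genes of the outer death pathway were split. Of 27 tested receptors, ligands and caspases 10 rose (37%) and 6 fell (22.2%), against 23% and 25.1% of all genes (median 0.36). TNFRSF10A, a receptor for the death ligand TRAIL, averaged 83.4 ± 4.45 CPM at 10 µM and 26.6 ± 4.71 CPM at 0 µM (log2 change 1.65, SE 0.204, adjusted p = 3.19e-05). TNFRSF10D, a decoy receptor for TRAIL, had 344, 224 and 319 CPM at 10 µM, against 64.5, 70.8 and 101 CPM at 0 µM. TNFSF10, which encodes TRAIL, had 0.239, 0.173 and 0.566 CPM at 10 µM, against 11.5, 5.5 and 22.4 CPM at 0 µM (log2 change -5.31, SE 0.649, adjusted p = 2.88e-05). Thus 2 of its receptors were higher and the ligand lower, none with overlap. CFLAR, an inhibitor of caspase 8, rose (253 CPM at 10 µM against 112 CPM at 0 µM), as did the kinase RIPK1 (70.1 CPM at 10 µM against 32.7 CPM at 0 µM), and the pore protein GSDMD fell (14.4 CPM at 10 µM against 53.3 CPM at 0 µM).

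The genes switched on by the drug were defined as those that rose with a mean under 0.1 CPM at 0 µM and of at least 1 CPM at 10 µM. They numbered 128, among 676 tested genes under that level at 0 µM, and 87 of them were protein-coding and 13 lncRNA. Since a gene this low at 0 µM passes the filter on counts mostly where a drug group is high, no share is drawn from that number. For 20 of the 128 no read was counted at 0 µM, and the fold is then a lower bound against 3 counts over the 0 µM group. At 2 µM 55 of the 128 rose as well, and 88 were higher and 1 lower at 10 than at 2 µM. The 128 were chosen by their 10 µM level, so these counts are a description. ATL3, a GTPase that fuses membranes of the endoplasmic reticulum (ENSG00000184743.13, chr11:63624087-63671974), had 5.77, 7.9 and 5.68 CPM in the 10 µM libraries, against 0, 0 and 0 CPM in the 0 µM libraries, at least 239-fold higher (adjusted p = 1.18e-06). KCNMA1, the BK potassium channel (ENSG00000156113.25, chr10:76869602-77637808), had 5.72, 2.94 and 2.04 CPM in the 10 µM libraries, against 0, 0 and 0 CPM in the 0 µM libraries, at least 126-fold higher (adjusted p = 2.85e-05). CRYBA2, a lens crystallin, reached 4.79, 3.54 and 4.21 CPM in the 10 µM libraries, against 0, 0 and 0 CPM in the 0 µM libraries, at least 151-fold higher (adjusted p = 0.000113). These 3 genes were thus read in each 10 µM library and in no 0 µM library.

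Other switched-on genes had a few reads at 0 µM. DHRS9, a retinol dehydrogenase (ENSG00000073737.17, chr2:169067077-169096167), had 67.2, 32 and 38.4 CPM in the 10 µM libraries, against 0, 0.129 and 0.102 CPM in the 0 µM libraries (log2 change 9.09, SE 0.788, adjusted p = 2.06e-06). TMCC3, a membrane protein of the endoplasmic reticulum, had 26.9, 14.8 and 18.1 CPM in the 10 µM libraries, against 0, 0.0257 and 0.0768 CPM in the 0 µM libraries (log2 change 8.99, SE 0.814, adjusted p = 2.77e-06). ARSJ, an arylsulfatase, held 1548 counts at 10 µM and 2 at 0 µM, a ratio of 594 (95% counting interval 164 to 4908). Among the other genes with 0 counts at 0 µM, GPR183, an oxysterol receptor of immune cells, was at least 55.5-fold higher, HS6ST3, a heparan sulfate sulfotransferase, at least 89.5-fold, and the developmental homeobox gene LBX1 at least 55.5-fold. Of the genes with printed promoters, NTNG1 had 15.1, 8.44 and 9.52 CPM at 10 µM, against 0, 0.103 and 0.0512 CPM at 0 µM (log2 change 7.60, SE 0.866, adjusted p = 1.62e-05), and ADGRF4 3.61, 2.86 and 1.48 CPM at 10 µM, against 0, 0.0772 and 0.0256 CPM at 0 µM (log2 change 6.09, SE 0.762, adjusted p = 3.47e-05). KLHL29 had 2.49, 2.63 and 2.06 CPM at 10 µM, against 0.0938, 0 and 0.102 CPM at 0 µM, and SNPH 2.51, 2.4 and 2.85 CPM at 10 µM, against 0, 0.18 and 0.0768 CPM at 0 µM. All 4 were read in each 10 µM library and were at or near 0 in each 0 µM library. NTNG1, ADGRF4 and SNPH also rose at 2 µM, KLHL29 did not pass there, and all 4 were higher at 10 than at 2 µM.

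Most somatic cells keep cancer-testis and germline genes methylated and silent. Of 76 listed, 27 passed the filter on counts, and of these 16 rose and 1 fell (median log2 change 2.05, numbers that the filter favours, since a silent gene passes only where it is high). The summed level of the list was 247, 227 and 198 CPM at 10 µM, against 184, 327 and 161 CPM at 0 µM. These sums overlapped, and their mean was 224 CPM at both doses. TDRD9, a germ cell helicase that acts against transposons (ENSG00000156414.20, chr14:103928456-104052667), had 3.01, 2.69 and 3.82 CPM in the 10 µM libraries, against 0, 0 and 0 CPM in the 0 µM libraries, at least 116-fold higher (adjusted p = 3.66e-06). TDRD12, of the same piRNA pathway, had 2.06, 1.63 and 2.93 CPM in the 10 µM libraries, against 0.0313, 0.129 and 0.205 CPM in the 0 µM libraries (log2 change 4.11, SE 0.482, adjusted p = 2.10e-05). TEX15, another germ cell silencing factor, averaged 16.7 ± 4.53 CPM at 10 µM and 2.28 ± 0.907 CPM at 0 µM (log2 change 2.87, SE 0.5, adjusted p = 0.000444). These 3 genes showed no overlap between groups. MAGEA3, MAGEA6, MAGEB1, MAGEB2 and CT83, antigens of cancer and testis, rose as well, and MAGEA3 and MAGEA6 are near-identical copies whose share of reads is uncertain. PIWIL2, which binds piRNAs, was the gene that fell (3.49 CPM at 10 µM against 10.7 CPM at 0 µM); the count of falls was 3 without 0 µM replicate 2, 2 without 10 µM replicate 3 and 0 without 0 µM replicate 3. The median of the list was 2.23 at 2 µM, where 13 rose, and in the direct comparison of the doses 3 members were higher and 7 lower at 10 µM.

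Secreted liver proteins fell almost without exception. Of 68 listed, 55 were tested, and 54 fell and none rose, with a median log2 change of -5.02. The member that did not pass was F12, a clotting factor (5.85 CPM at 10 µM against 5.84 CPM at 0 µM). The summed level of the list was 1621, 2689.6 and 1857 CPM at 10 µM, against 46922, 29639 and 66758 CPM at 0 µM, and every 10 µM sum was below every 0 µM sum. ALB, albumin (ENSG00000163631.19, chr4:73404287-73421482), had 631, 1165 and 668 CPM in the 10 µM libraries, against 18289, 13576 and 24443 CPM in the 0 µM libraries (log2 change -4.51, SE 0.353, adjusted p = 9.54e-07). SERPINA1, the protease inhibitor alpha-1-antitrypsin (ENSG00000197249.14, chr14:94376747-94390635), had 102, 186 and 159 CPM in the 10 µM libraries, against 2678, 1822 and 4030.3 CPM in the 0 µM libraries (log2 change -4.25, SE 0.363, adjusted p = 1.83e-06). AHSG had 28.9, 83.6 and 56.9 CPM in the 10 µM libraries, against 3203, 1781 and 5079 CPM in the 0 µM libraries (log2 change -5.89, SE 0.526, adjusted p = 2.53e-06). In all 3 genes the 0 µM libraries differed by up to about 3 times among themselves, and the 10 µM libraries lay far below the lowest.

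Carriers of iron, copper and hormones were among these falls. TF, transferrin, averaged 53.5 ± 21.9 CPM at 10 µM and 3322 ± 1450.2 CPM at 0 µM (log2 change -5.96, SE 0.523, adjusted p = 2.25e-06). HP, haptoglobin, averaged 0.414 ± 0.396 CPM at 10 µM and 321 ± 179 CPM at 0 µM (log2 change -9.57, SE 0.68, adjusted p = 5.20e-07), and CP, ceruloplasmin, 0.384 ± 0.119 CPM at 10 µM and 404 ± 407 CPM at 0 µM (log2 change -10.04, SE 1.02, adjusted p = 6.44e-06). TTR and SERPINA7, which carry thyroid hormone, stood at 0.332 against 108 CPM and 1.31 against 329.7 CPM at 10 against 0 µM. The clotting gene FGG, the gamma chain of fibrinogen, had 15.7, 18.5 and 26.4 CPM at 10 µM, against 2175, 1171 and 1861 CPM at 0 µM, and the complement gene C8A 0.0478, 0.0192 and 0.0607 CPM at 10 µM, against 25.4, 14.8 and 26.2 CPM at 0 µM. F10, a clotting factor, had 5.05, 6.05 and 5.48 CPM at 10 µM, against 97.7, 48.6 and 158 CPM at 0 µM. None of these 8 showed overlap.

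Apolipoproteins and lipid carriers followed the same direction, with 24 of 26 lower and 1 higher (median -3.13). APOB, the core protein of very low density lipoprotein (ENSG00000084674.15, chr2:21001429-21044073), had 254, 336 and 348 CPM in the 10 µM libraries, against 13028, 10976 and 17661 CPM in the 0 µM libraries (log2 change -5.47, SE 0.316, adjusted p = 1.36e-07). APOA1, of high density lipoprotein, averaged 104 ± 20.7 CPM at 10 µM and 2397 ± 975 CPM at 0 µM (log2 change -4.53, SE 0.347, adjusted p = 8.08e-07). MTTP, which loads lipid onto APOB, had 0.694, 1.09 and 1.01 CPM at 10 µM, against 168, 107 and 292 CPM at 0 µM (log2 change -7.65, SE 0.528, adjusted p = 4.50e-07). The gene that rose was the cholesterol exporter ABCG1, from very few reads (0.921 CPM at 10 µM against 0.0513 CPM at 0 µM). Intracellular fatty acid carriers were among the largest falls of all genes: FABP1, of liver, had 0.143, 0.135 and 0.101 CPM at 10 µM, against 281, 119.7 and 611 CPM at 0 µM (log2 change -11.36, SE 1.03, adjusted p = 2.76e-06), and FABP2 was not read at 10 µM and was at least 159-fold lower.

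Enzymes of drug and bile acid metabolism were mostly lower. Of 39 tested cytochrome P450 and conjugating enzymes, 26 fell and 5 rose (median -1.97). SULT2A1, a sulfotransferase of steroids and bile acids, had 0.766, 0.769 and 0.768 CPM at 10 µM, against 185, 140.2 and 173 CPM at 0 µM (log2 change -7.75, SE 0.374, adjusted p = 6.33e-08). CYP27A1, which hydroxylates sterols on the way to bile acids, had 40.4, 42.7 and 49.1 CPM at 10 µM, against 291, 203 and 269.6 CPM at 0 µM (log2 change -2.53, SE 0.221, adjusted p = 2.20e-06). The glucuronosyltransferases UGT2B4, UGT2B10, UGT2B11 and UGT2A3 fell too, and as close relatives they may share reads. The risers were CYP24A1, which degrades vitamin D (118 CPM at 10 µM against 38.5 CPM at 0 µM), CYP1A1 (14.4 CPM at 10 µM against 5.87 CPM at 0 µM), CYP7B1 (0.574 CPM at 10 µM against 0.0618 CPM at 0 µM), CYP2R1 (2.21 CPM at 10 µM against 0.671 CPM at 0 µM) and NAT1 (10.8 CPM at 10 µM against 5.06 CPM at 0 µM), a count that was 3, without CYP1A1 and NAT1, when 0 µM replicate 1 or 10 µM replicate 2 was left out. CYP24A1 did not pass without 10 µM replicate 1.

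Transcription factors that define hepatocytes fell too, with a smaller median change than the secreted proteins. Of 28 tested, 18 fell and 3 rose (median -1.26). HNF4A, a central factor of hepatocyte identity (ENSG00000101076.20, chr20:44355699-44434596), had 68.8, 95.7 and 77.4 CPM in the 10 µM libraries, against 312, 279.7 and 271 CPM in the 0 µM libraries (log2 change -1.83, SE 0.214, adjusted p = 2.00e-05). NR1H4, the bile acid receptor FXR (ENSG00000012504.15, chr12:100473866-100564414), had 0.526, 1.63 and 1.01 CPM in the 10 µM libraries, against 99.5, 91.7 and 77.4 CPM in the 0 µM libraries (log2 change -6.38, SE 0.348, adjusted p = 1.11e-07). FOXA1, which opens chromatin at liver enhancers, averaged 12 ± 2.21 CPM at 10 µM and 55.5 ± 11.5 CPM at 0 µM (log2 change -2.21, SE 0.235, adjusted p = 9.26e-06). No library of the 2 groups overlapped for these 3 factors. HHEX and NR5A2, of early liver development, averaged 20.3 against 76.9 CPM and 7.35 against 22.7 CPM at 10 against 0 µM. The risers were GATA6 (9.3 CPM at 10 µM against 2.91 CPM at 0 µM), the stress factor ATF5 (11.4 CPM at 10 µM against 4.98 CPM at 0 µM) and CEBPB (90.7 CPM at 10 µM against 56.9 CPM at 0 µM), the last not without 0 µM replicate 1 or 2 or 10 µM replicate 2 or 3. The antisense RNA HNF4A-AS1 fell as well (0.0394 CPM at 10 µM against 3.32 CPM at 0 µM), with the limit that reads of antisense partners could not be told apart.

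Fetal liver and imprinted genes were split. Of 24 tested, 6 rose (25%) and 13 fell (54.2%), against 23% and 25.1% of all genes (median -0.84). AFP, the fetal counterpart of albumin (ENSG00000081051.8, chr4:73436221-73456174), had 76.8, 92 and 51.3 CPM in the 10 µM libraries, against 7136, 5566 and 6492 CPM in the 0 µM libraries (log2 change -6.45, SE 0.291, adjusted p = 6.33e-08). GPC3, a proteoglycan of fetal liver and liver cancer, averaged 165 ± 29.2 CPM at 10 µM and 1758 ± 808 CPM at 0 µM, and the imprinted genes PEG3 and PEG10 averaged 45 against 1953 CPM and 463 against 2789.6 CPM at 10 against 0 µM. GRB10, an imprinted adaptor of insulin signalling (ENSG00000106070.20, chr7:50590068-50793453), moved the other way, with 706, 554 and 548 CPM in the 10 µM libraries, against 19, 32.2 and 40.4 CPM in the 0 µM libraries (log2 change 4.30, SE 0.413, adjusted p = 4.31e-06). The groups did not overlap in any of these 5. H19, PHLDA2 and MEG3, all imprinted, were among the other risers. When the 6 libraries of both doses were fitted alone, 2 members rose. GRB10, H19, PHLDA2 and MEG3 lost no call in any fit that tested them, so the drop includes members that the filter removed. The filter of the main fit also took in the 2 µM libraries.

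**Figure D2:**
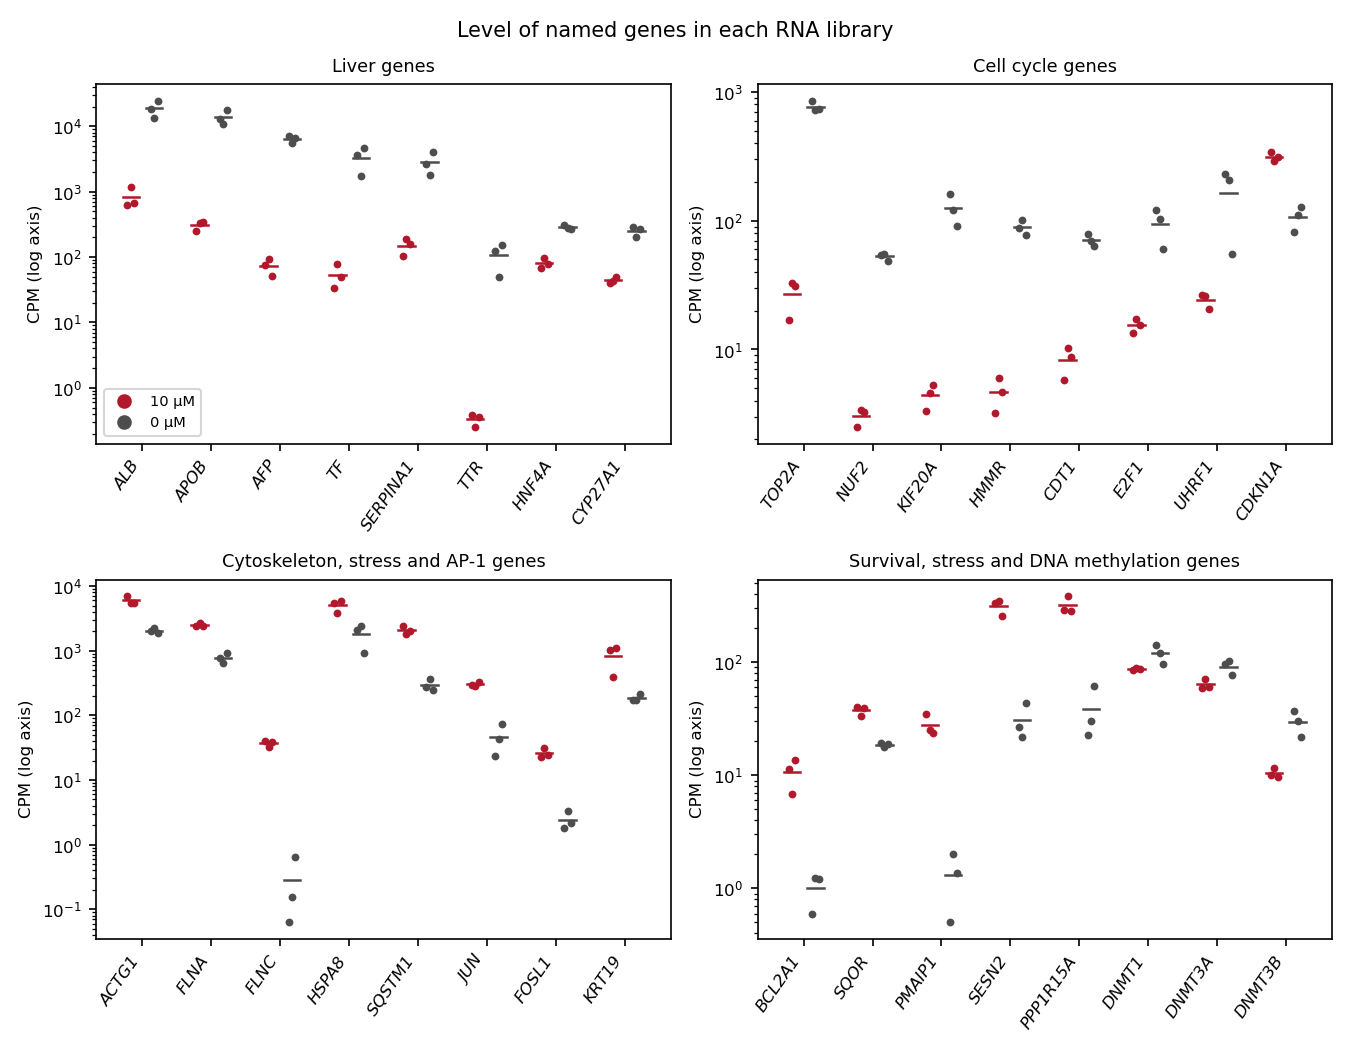
Level of named genes in each RNA library. The vertical axes are CPM on a log scale, points are libraries (red 10 µM, grey 0 µM, 3 each), and short lines are means. ALB stands at 0.0438 times its 0 µM level in the fit and TOP2A at 0.0352 times, while FLNC stands at 124 times and SQSTM1 at 7.13 times.

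Mitosis genes fell together. Of 59 tested, 58 fell and 1 rose, with a median log2 change of -3.38, against -0.43 at 2 µM. NUF2, of the kinetochore (ENSG00000143228.13, chr1:163321954-163355759), had 2.49, 3.4 and 3.28 CPM in the 10 µM libraries, against 54.3, 55.2 and 49 CPM in the 0 µM libraries (log2 change -4.11, SE 0.216, adjusted p = 1.02e-07). CENPA, which marks centromeres (ENSG00000115163.15, chr2:26786056-26794589), had 1.03, 1.86 and 1.76 CPM in the 10 µM libraries, against 56.1, 49.9 and 37.2 CPM in the 0 µM libraries (log2 change -4.93, SE 0.279, adjusted p = 1.30e-07). TOP2A, the topoisomerase that untangles sister chromatids (ENSG00000131747.15, chr17:40388525-40417896), had 16.9, 33.1 and 31.1 CPM in the 10 µM libraries, against 853, 718 and 732 CPM in the 0 µM libraries (log2 change -4.83, SE 0.281, adjusted p = 1.36e-07). For these genes the libraries of each dose lay within about 2 times of each other, and the doses were far apart. KIF20A, a kinesin of cytokinesis, averaged 4.4 ± 1.02 CPM at 10 µM and 124 ± 35.9 CPM at 0 µM, and CENPF, a kinetochore protein, 22.7 ± 4.08 CPM at 10 µM and 329.7 ± 43.5 CPM at 0 µM. The gene that rose was BUB3, a checkpoint protein that is also in splicing complexes (434 CPM at 10 µM against 258 CPM at 0 µM, log2 change 0.75, SE 0.201, adjusted p = 0.00798).

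Genes of DNA replication fell with a smaller median change. Of 44 tested, 36 fell and none rose (median -1.80), with 1 rise without 0 µM replicate 2. CDT1, which licenses origins of replication (ENSG00000167513.9, chr16:88803789-88809258), had 5.81, 10.3 and 8.67 CPM in the 10 µM libraries, against 79.2, 70.0 and 63.7 CPM in the 0 µM libraries (log2 change -3.10, SE 0.27, adjusted p = 2.12e-06). E2F1, the transcription factor of S-phase entry, had 13.5, 17.3 and 15.6 CPM in the 10 µM libraries, against 120.1, 104 and 60.0 CPM in the 0 µM libraries (log2 change -2.62, SE 0.272, adjusted p = 7.80e-06). LIG1, the ligase of the lagging strand, averaged 8.49 ± 0.307 CPM at 10 µM and 66.9 ± 27.9 CPM at 0 µM, and GINS1, of the replicative helicase, 9.45 ± 0.731 CPM at 10 µM and 95.7 ± 44.6 CPM at 0 µM. Overlap was seen in none of these 4. The replication-dependent histones, which are made in S phase, had the second lowest median of the lists (-4.26), with 48 of 55 lower and 1 higher. H3C3, a histone H3 gene, had 4.38, 7.32 and 6.92 CPM at 10 µM, against 623, 409 and 163 CPM at 0 µM (log2 change -6.00, SE 0.464, adjusted p = 8.80e-07). H1-5, a linker histone gene, had 1.89, 1.58 and 3.34 CPM at 10 µM, against 341, 239 and 75.8 CPM at 0 µM (log2 change -6.59, SE 0.54, adjusted p = 1.32e-06). The histone values at 0 µM varied with the library, as the shares above show, the 10 µM values lay below each of them, and without 0 µM replicate 3 the counts were within 1.5 times. Histone genes are near-identical copies, so the share of each is uncertain. The riser was H2BC6 (3.89 CPM at 10 µM against 1.48 CPM at 0 µM), and 2 rose without 0 µM replicate 1.

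DNA repair genes fell in part, 29 of 46, with 5 higher (median -1.04). FANCD2, of crosslink repair, had 8.18, 11.1 and 8.51 CPM at 10 µM, against 96.2, 78.1 and 54 CPM at 0 µM (log2 change -3.04, SE 0.247, adjusted p = 1.26e-06). RAD54L, of homologous recombination, had 1.63, 2.81 and 2.95 CPM at 10 µM, against 34.1, 26.1 and 18.7 CPM at 0 µM (log2 change -3.41, SE 0.319, adjusted p = 3.51e-06). The 5 that rose were the break sensors NBN (143 CPM at 10 µM against 89.6 CPM at 0 µM) and RAD50 (9.13 CPM at 10 µM against 5.26 CPM at 0 µM), the helicase WRN (59.6 CPM at 10 µM against 33.3 CPM at 0 µM), the end-joining ligase LIG4 (41.9 CPM at 10 µM against 15.8 CPM at 0 µM) and the checkpoint kinase ATR (98.3 CPM at 10 µM against 61.1 CPM at 0 µM). NBN did not pass without 0 µM replicate 1 or 3 or without any 1 of the 10 µM libraries, and RAD50 not without 0 µM replicate 2.

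Inhibitors of cyclin-dependent kinases went both ways, 3 up and 3 down of 7 tested (42.9% each, against 23% and 25.1% of all genes). CDKN1A, the p53 target p21 (ENSG00000124762.14, chr6:36676463-36687332), had 343, 292 and 309.8 CPM in the 10 µM libraries, against 82.2, 110.2 and 128 CPM in the 0 µM libraries (log2 change 1.56, SE 0.216, adjusted p = 7.67e-05). CDKN2A, the locus of p16 and ARF (ENSG00000147889.18, chr9:21967752-21995324), had 17.6, 12.4 and 22 CPM in the 10 µM libraries, against 1.41, 2.13 and 1.72 CPM in the 0 µM libraries (log2 change 3.30, SE 0.382, adjusted p = 1.85e-05). CDKN2B, its neighbour, averaged 20.9 ± 1.68 CPM at 10 µM and 3.09 ± 0.625 CPM at 0 µM (log2 change 2.75, SE 0.318, adjusted p = 1.82e-05). CDKN1B, p27, averaged 35 ± 2.78 CPM at 10 µM and 96 ± 10.2 CPM at 0 µM, CDKN2C, p18, 1.04 ± 0.444 CPM at 10 µM and 22.2 ± 5.96 CPM at 0 µM, and CDKN3, a phosphatase whose RNA is known to peak in mitosis, 1.46 ± 0.181 CPM at 10 µM and 42.9 ± 13.9 CPM at 0 µM. Each of the 6 was without overlap.

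Targets of p53 were called about as often as all genes, with 10 rises and 10 falls among 42 (23.8% each, against 23% and 25.1% of all genes; median 0.04, which was -0.07 without 0 µM replicate 1). Scaling by total counts gave 17 rises. SESN2, a stress protein that restrains mTORC1 and is also induced by amino acid lack (ENSG00000130766.5, chr1:28259518-28282491), had 332, 348 and 258 CPM in the 10 µM libraries, against 26.7, 21.9 and 43.4 CPM in the 0 µM libraries (log2 change 3.35, SE 0.331, adjusted p = 5.38e-06). PLK2, a kinase induced by damage, averaged 128 ± 11.9 CPM at 10 µM and 19.6 ± 2.8 CPM at 0 µM (log2 change 2.70, SE 0.267, adjusted p = 5.25e-06). FDXR, a mitochondrial reductase, averaged 31.8 ± 0.891 CPM at 10 µM and 137 ± 39.1 CPM at 0 µM and DRAM1, of autophagy, 27.2 ± 3.45 CPM at 10 µM and 82.3 ± 14.1 CPM at 0 µM; both fell.

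Stress programmes moved in different directions. In the integrated stress response, 16 of 40 rose (40%) and 7 fell (17.5%), against 23% and 25.1% of all genes (median 0.37). The rises were 11 (median 0.10), 12 (0.19) and 22 (0.69) without 0 µM replicate 1, 2 or 3. The summed level of the list was 10885, 10569.5 and 9706 CPM at 10 µM, against 5936.5, 6607 and 11609 CPM at 0 µM, so the groups overlapped. PPP1R15A, which removes the phosphate from the translation factor eIF2 alpha (ENSG00000087074.9, chr19:48872421-48876058), had 292, 385 and 286 CPM in the 10 µM libraries, against 22.6, 30.3 and 61.8 CPM in the 0 µM libraries (log2 change 3.07, SE 0.376, adjusted p = 2.97e-05). SLC3A2, the heavy chain of amino acid transporters, had 1007, 918 and 1004 CPM at 10 µM, against 271, 259 and 236 CPM at 0 µM (log2 change 1.93, SE 0.196, adjusted p = 6.44e-06). ATF4, DDIT3, CHAC1 and TRIB3, the core factor and 3 of its targets, rose too, with 1119 against 531 CPM, 48.6 against 21.3 CPM, 1.9 against 0.273 CPM and 607 against 356 CPM at 10 against 0 µM. DDIT3 and CHAC1 did not pass without 0 µM replicate 1 or 2, nor TRIB3 without 0 µM replicate 1 or 10 µM replicate 2, and CHAC1 had a log2 change of 5.01 without 0 µM replicate 3 in place of 2.75. The serine synthesis genes PHGDH, PSAT1 and PSPH, which ATF4 is also known to induce, fell (51.4 against 122 CPM, 126 against 278 CPM and 55.9 against 166 CPM at 10 against 0 µM).

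Folding genes of the endoplasmic reticulum mostly fell, and more heat shock genes rose than fell. Of 27 tested genes of the unfolded protein response, 18 fell and 1 rose (median -1.24). HSPA5, the chaperone BiP, had 109.5, 104 and 86.9 CPM at 10 µM, against 608, 470.3 and 450.4 CPM at 0 µM (log2 change -2.35, SE 0.214, adjusted p = 2.90e-06). PDIA4, a disulfide isomerase, had 62.9, 52.1 and 65.3 CPM at 10 µM, against 1325, 974 and 957 CPM at 0 µM (log2 change -4.17, SE 0.286, adjusted p = 4.39e-07). CALR, calreticulin, averaged 139 ± 11.7 CPM at 10 µM and 1086 ± 298 CPM at 0 µM. The riser was the stress sensor ERN1 (71.2 CPM at 10 µM against 32.1 CPM at 0 µM), which did not pass without 0 µM replicate 1 or 2 or 10 µM replicate 2, and 3 rose without 0 µM replicate 3.

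Of 24 heat shock genes, nearly all cytosolic, 10 rose (41.7%) and 3 fell (12.5%), against 23% and 25.1% of all genes (median 0.55). Scaling by total counts gave 16 rises. HSPA8, the constitutive chaperone HSC70 (ENSG00000109971.14, chr11:123057489-123062462), had 5477, 3812 and 5888 CPM in the 10 µM libraries, against 2059.6, 2415 and 925 CPM in the 0 µM libraries (log2 change 1.49, SE 0.304, adjusted p = 0.00137). HSPA1A, the inducible HSP70, averaged 114 ± 19.7 CPM at 10 µM and 33.4 ± 9.25 CPM at 0 µM and shares near-identical sequence with HSPA1B. BAG3, which directs HSP70 clients to autophagy, had 85.4, 87.4 and 87.1 CPM at 10 µM, against 28.1, 29.1 and 20.4 CPM at 0 µM (log2 change 1.74, SE 0.201, adjusted p = 1.76e-05). The falls were HSPD1 and HSPE1, which form the mitochondrial chaperonin (1377 against 2618 CPM and 56.5 against 117 CPM at 10 against 0 µM), and HSPB1 (14.9 CPM at 10 µM against 27.1 CPM at 0 µM), which did not pass without 10 µM replicate 1 or under total counts.

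Targets of NRF2, the transcription factor of the oxidant response, went both ways. Of 31 tested, 7 rose (22.6%) and 16 fell (51.6%), against 23% and 25.1% of all genes (median -0.60). TXNRD1, thioredoxin reductase (ENSG00000198431.18, chr12:104215779-104350307), had 2383, 1821 and 1389.6 CPM in the 10 µM libraries, against 389.9, 461 and 329 CPM in the 0 µM libraries (log2 change 2.25, SE 0.249, adjusted p = 1.28e-05). GCLC had 493, 588 and 367 CPM at 10 µM, against 130, 157 and 145 CPM at 0 µM (log2 change 1.75, SE 0.218, adjusted p = 3.50e-05), and OSGIN1 averaged 157 ± 15.5 CPM at 10 µM and 30.9 ± 7.78 CPM at 0 µM. SLC7A11 and GCLM were among the other risers. GPX2, a glutathione peroxidase, had 4.76, 9.19 and 6.13 CPM at 10 µM, against 236, 248 and 117 CPM at 0 µM (log2 change -4.90, SE 0.355, adjusted p = 5.74e-07). The aldo-keto reductases AKR1B1, AKR1B10, AKR1C2 and AKR1C3 and the pentose phosphate enzyme TKT were among the falls, and the AKR1C copies may share reads.

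Genes that clear protein moved both ways. SQSTM1, the autophagy receptor p62 (ENSG00000161011.20, chr5:179806393-179838078), had 2449, 1850.5 and 2046 CPM in the 10 µM libraries, against 276, 367 and 247 CPM in the 0 µM libraries (log2 change 2.83, SE 0.264, adjusted p = 3.38e-06). Of 32 lysosome and autophagy genes 9 rose (28.1%) and 11 fell (34.4%), against 23% and 25.1% of all genes (median -0.17). The lysosomal protease CTSD, with 37.4 ± 3.13 CPM at 10 µM and 168 ± 53.8 CPM at 0 µM, was among the falls. Of 30 proteasome genes 6 rose (20%) and none fell, against 23% and 25.1% of all genes (median 0.15). Without 0 µM replicate 3 the counts were 4 rises and 8 falls, and the median was -0.15. PSMD2, a subunit of the regulatory particle, had 1327, 1206 and 1261 CPM at 10 µM, against 371, 398 and 262 CPM at 0 µM (log2 change 1.88, SE 0.238, adjusted p = 3.90e-05). PSMD2 lay well above the other proteasome genes in its change.

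Immediate early genes of the AP-1 family rose. Of 25 tested, 16 rose (64%) and none fell, against 23% and 25.1% of all genes (median 1.37, against -0.16 at 2 µM). The median was 1.02, 1.09 and 2.125 without 0 µM replicate 1, 2 or 3, and 1 gene fell without 0 µM replicate 1 or 2. The summed level of the list was 2284, 2308 and 2315.5 CPM at 10 µM, against 787, 1068 and 2057 CPM at 0 µM. JUN, a subunit of AP-1 (ENSG00000177606.9, chr1:58780791-58784047), had 292, 285 and 331 CPM in the 10 µM libraries, against 23.7, 43.2 and 72.8 CPM in the 0 µM libraries (log2 change 2.70, SE 0.348, adjusted p = 4.42e-05). FOSL1, its partner FRA1 (ENSG00000175592.9, chr11:65892049-65900545), had 23.1, 31 and 24.2 CPM in the 10 µM libraries, against 1.81, 3.27 and 2.17 CPM in the 0 µM libraries (log2 change 3.43, SE 0.325, adjusted p = 3.84e-06). BATF, another AP-1 subunit, averaged 8.46 ± 2.6 CPM at 10 µM and 0.78 ± 0.224 CPM at 0 µM, and the feedback phosphatase DUSP4 11.6 ± 1.41 CPM at 10 µM and 1.9 ± 0.115 CPM at 0 µM. No overlap was seen in these 4. KLF4, IER2, ATF3 and MAFF rose as well.

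Of 35 genes of the actin cytoskeleton 17 rose (48.6%), with 6 lower (17.1%), against 23% and 25.1% of all genes (median 0.64). ACTG1, cytoplasmic actin (ENSG00000184009.13, chr17:81509971-81512799), had 7036, 5449.8 and 5515 CPM in the 10 µM libraries, against 2022, 2237 and 1904 CPM in the 0 µM libraries (log2 change 1.55, SE 0.234, adjusted p = 0.000153). FLNA, filamin A, had 2389, 2650.4 and 2376 CPM at 10 µM, against 774, 648 and 926 CPM at 0 µM (log2 change 1.66, SE 0.21, adjusted p = 3.75e-05), and FLNC, a filamin of muscle, 40.0, 32.1 and 38.4 CPM at 10 µM, against 0.0625, 0.154 and 0.64 CPM at 0 µM (log2 change 6.95, SE 0.627, adjusted p = 2.73e-06). ZYX and VCL, of focal adhesions, averaged 119 against 27.7 CPM and 229.7 against 83 CPM at 10 against 0 µM. ACTA2, of smooth muscle, fell (12.1 CPM at 10 µM against 28.7 CPM at 0 µM), as did CALD1, which steadies actin filaments (66.4 CPM at 10 µM against 206 CPM at 0 µM).

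Matrix and adhesion genes were split in both lists. Of 35 matrix, protease and mesenchymal genes 15 rose (42.9%) and 10 fell (28.6%), against 23% and 25.1% of all genes. The median was -0.04 and turned positive under total counts, with the 6 libraries alone, and without 0 µM replicate 3 or 10 µM replicate 2. ITGA5, the fibronectin receptor subunit, had 23.1, 10.9 and 18.1 CPM at 10 µM, against 0.5, 0.72 and 1.05 CPM at 0 µM (log2 change 4.50, SE 0.436, adjusted p = 4.60e-06). FN1, fibronectin itself (ENSG00000115414.21, chr2:215360865-215436068), had 1905, 1388 and 1672 CPM at 10 µM, against 7695, 4169 and 16449 CPM at 0 µM (log2 change -2.51, SE 0.405, adjusted p = 0.000248). The mesenchymal factor ZEB2 averaged 4.89 ± 1.32 CPM at 10 µM and 0.118 ± 0.0641 CPM at 0 µM, and the collagenase MMP1 rose too (84.8 CPM at 10 µM against 0.426 CPM at 0 µM). SPARC and TGFBI, secreted matrix proteins, averaged 11.1 against 76.5 CPM and 78.9 against 548 CPM at 10 against 0 µM.

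Of 30 tested genes of epithelial adhesion 6 rose (20%) and 13 fell (43.3%), against 23% and 25.1% of all genes (median -0.45). GJB1, the connexin of hepatocyte gap junctions, had 1.91, 1.31 and 2.79 CPM at 10 µM, against 160.4, 129 and 134 CPM at 0 µM (log2 change -6.14, SE 0.353, adjusted p = 1.36e-07). HEPACAM, an adhesion protein of liver cells, averaged 1.56 ± 0.55 CPM at 10 µM and 140.1 ± 39.5 CPM at 0 µM (log2 change -6.49, SE 0.469, adjusted p = 5.68e-07). KRT19, a keratin of bile ducts and liver progenitors (ENSG00000171345.13, chr17:41523617-41528308), had 1039, 398 and 1092 CPM in the 10 µM libraries, against 170.2, 173 and 217 CPM in the 0 µM libraries (log2 change 2.17, SE 0.398, adjusted p = 0.000639). ESAM, a junction protein known from endothelium (ENSG00000149564.12, chr11:124753126-124762290), had 348, 269.9 and 374 CPM in the 10 µM libraries, against 9.6, 14.7 and 13.4 CPM in the 0 µM libraries (log2 change 4.72, SE 0.388, adjusted p = 1.37e-06). GJB1 and HEPACAM fell while KRT19 and ESAM rose, with no overlap in any of the 4.

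Signalling lists had members in both directions. Inflammatory genes and targets of NF-kappaB counted 6 rises (30%) and 9 falls (45%) among 20, against 23% and 25.1% of all genes. TRAF1, an adaptor of TNF receptors, had 14.8, 22.9 and 24.9 CPM at 10 µM, against 0.344, 0.411 and 1.15 CPM at 0 µM (log2 change 5.01, SE 0.453, adjusted p = 2.75e-06), and the cytokine IL11 averaged 95.9 ± 4.17 CPM at 10 µM and 11.1 ± 5.37 CPM at 0 µM. CCL20, a chemokine, and TNFAIP3, a brake on NF-kappaB, averaged 3.27 against 100.3 CPM and 7.46 against 71.4 CPM at 10 against 0 µM. Of 23 Wnt genes 4 rose (17.4%) and 11 fell (47.8%), against the same shares of all genes. The Wnt target NOTUM, known to be high in cells with active beta-catenin, averaged 18.2 ± 2.85 CPM at 10 µM and 387 ± 90.3 CPM at 0 µM (log2 change -4.41, SE 0.311, adjusted p = 5.12e-07).

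Antiviral genes moved both ways, and antigen presentation genes fell or did not pass. Of 39 interferon-stimulated genes 8 rose (20.5%) and 12 fell (30.8%), near the 23% and 25.1% of all genes (median -0.02, positive under total counts and without 0 µM replicate 3), and 5 rose without 10 µM replicate 2. OAS3, a sensor of double-stranded RNA, averaged 70.3 ± 0.9 CPM at 10 µM and 28.1 ± 3.45 CPM at 0 µM and SAMD9 12 ± 1.34 CPM at 10 µM and 1.22 ± 0.312 CPM at 0 µM, both higher, whereas IFIT1 averaged 0.226 ± 0.193 CPM at 10 µM and 4.14 ± 2.07 CPM at 0 µM and USP18 6.22 ± 1.06 CPM at 10 µM and 32.4 ± 7.81 CPM at 0 µM, both lower. In MHC class I presentation none rose and 12 of 18 fell (median -1.12). 1 gene of this list rose without 0 µM replicate 3.

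Chromatin regulators as lists were called in shares near those of all genes, 23% higher and 25.1% lower. Of 26 heterochromatin genes 4 rose (15.4%) and 7 fell (26.9%), or 9 and 4 under total counts, and CBX5, the heterochromatin protein HP1 alpha, had 18.8, 26.5 and 18.7 CPM at 10 µM, against 94, 108 and 118 CPM at 0 µM (log2 change -2.32, SE 0.235, adjusted p = 6.39e-06). Of 28 polycomb genes 8 rose (28.6%) and 5 fell (17.9%). EZH2, the methyltransferase of polycomb complex 2, averaged 24.7 ± 3.4 CPM at 10 µM and 58.2 ± 8.33 CPM at 0 µM and its relative EZH1 46 ± 4.17 CPM at 10 µM and 19.1 ± 6.04 CPM at 0 µM, and both passed, in opposite directions. Of 42 listed genes that liver tumours often methylate, 31 were tested. Of these, 11 rose (35.5%) and 9 fell (29%), against 23% and 25.1% of all genes. The filter on counts favours rises here, since a gene silent at 0 µM passes mostly where a drug group is high. The median log2 change was 0.51, and -0.38 without 10 µM replicate 3. RASSF1, a tumour suppressor, averaged 62.7 ± 10.2 CPM at 10 µM and 15.1 ± 2.06 CPM at 0 µM, and the repair gene MGMT 8.43 ± 1.35 CPM at 10 µM and 37.8 ± 10.4 CPM at 0 µM, which fell.

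Metabolic genes of liver cells and of growing cells fell. Of 33 genes of cholesterol and fatty acid synthesis, 29 fell and none rose (median -2.02, against -0.84 at 2 µM). SCD, which desaturates fatty acids (ENSG00000099194.6, chr10:100347233-100364826), had 112, 135 and 105 CPM in the 10 µM libraries, against 1648, 2113 and 2591 CPM in the 0 µM libraries (log2 change -4.17, SE 0.46, adjusted p = 1.22e-05). Glycolysis and hypoxia genes fell in 24 of 36 cases and rose in 3 (median -1.39). LDHA, lactate dehydrogenase, had 267, 281 and 249 CPM at 10 µM, against 1299, 1244 and 1553 CPM at 0 µM (log2 change -2.36, SE 0.206, adjusted p = 2.11e-06). CA9, the hypoxia-induced carbonic anhydrase (ENSG00000107159.14, chr9:35673928-35681159), had 0, 0 and 0 CPM in the 10 µM libraries, against 24.2, 10.7 and 73.8 CPM in the 0 µM libraries, at least 1769-fold lower (adjusted p = 2.07e-05), the largest fitted fall among protein-coding genes. The risers were HK1 (38 CPM at 10 µM against 9.44 CPM at 0 µM), PFKP (38.6 CPM at 10 µM against 11.7 CPM at 0 µM) and HIF1A (419 CPM at 10 µM against 249.8 CPM at 0 µM), the last not without 10 µM replicate 1.

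Single metabolic genes of liver were among the largest falls. PCK1, which commits carbon to glucose, had 0.0478, 0 and 0.101 CPM at 10 µM, against 10.8, 3.16 and 142 CPM at 0 µM (log2 change -9.97, SE 1.72, adjusted p = 0.000419). G6PC1, which releases glucose from the cell, had 0.0239, 0 and 0 CPM at 10 µM, against 7.47, 1.34 and 91.3 CPM at 0 µM, so replicate 3 held most of its 0 µM reads. Its log2 change was -11.71 with all libraries and -8.81 without 0 µM replicate 3. ARG1, of the urea cycle, was not read at 10 µM and was at least 103-fold lower, with 0 CPM at 10 µM against 2.28 CPM at 0 µM. SLC6A14, an amino acid importer, had 0.191, 0.115 and 0.0607 CPM at 10 µM, against 82.7, 158 and 146 CPM at 0 µM (log2 change -10.04, SE 0.623, adjusted p = 2.11e-07). The amino acid transporters as a list counted 10 falls (43.5%) and 3 rises (13%) among 23, against 25.1% and 23% of all genes. Without 0 µM replicate 3 there were 5 rises.

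Genes of respiration and ribosomal proteins changed by smaller steps. Of 44 nuclear genes of oxidative phosphorylation 24 fell and 1 rose (median -0.55), and 14 fell under total counts or without 10 µM replicate 2. None of the 12 mitochondrially encoded genes passed (edgeR median -0.81, with a positive median of 0.18 without 0 µM replicate 3), while DESeq2 called 1 lower, 5 were lower with no filter on low counts, and 2 were lower without 0 µM replicate 1 and 1 without 0 µM replicate 2. Of 78 cytosolic ribosomal protein genes 68 fell and none rose, with log2 changes between -1.32 and 0.11 (median -0.89). Their summed level was 33904, 26993 and 34151 CPM at 10 µM, against 66076, 53980.4 and 55291 CPM at 0 µM, without overlap. Genes that build ribosomes went the other way, with 15 of 42 higher (35.7%) and 2 lower (4.76%), against 23% and 25.1% of all genes (median 0.46). Without 0 µM replicate 3, 5 were lower. RRN3, which recruits RNA polymerase I to ribosomal DNA (ENSG00000085721.13, chr16:15060022-15094335), had 581, 598 and 556 CPM in the 10 µM libraries, against 130.3, 176 and 127 CPM in the 0 µM libraries (log2 change 2.00, SE 0.221, adjusted p = 1.23e-05). FBL, fibrillarin, was 1 of the 2 falls (23.7 CPM at 10 µM against 70.7 CPM at 0 µM).

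By amount of RNA, the largest gains in mean CPM were in ACTG1 and HSPA8, given above, and in SPTBN1, a spectrin, with 4301, 4505 and 4223 CPM at 10 µM, against 1828, 1719.5 and 3107 CPM at 0 µM (log2 change 0.97, SE 0.22, adjusted p = 0.00282). F2RL1, a receptor cut open by trypsin-like proteases (ENSG00000164251.5, chr5:76819030-76835315), had 1478, 1159 and 1424 CPM in the 10 µM libraries, against 56.1, 103 and 79.3 CPM in the 0 µM libraries (log2 change 4.09, SE 0.391, adjusted p = 4.11e-06). AKAP12, a scaffold of protein kinase A, averaged 1472 ± 276 CPM at 10 µM and 309 ± 126 CPM at 0 µM, and DST, a linker of cytoskeletal filaments, 1618 ± 228 CPM at 10 µM and 381 ± 133 CPM at 0 µM. The largest losses were in ALB, APOB, FN1 and AFP. EEF1A1, the elongation factor of translation, had 9581, 7039 and 8545 CPM at 10 µM, against 14905, 13796 and 15107 CPM at 0 µM (log2 change -0.80, SE 0.172, adjusted p = 0.00197), and GAPDH, a common reference gene, 1901, 1448 and 1778 CPM at 10 µM, against 4177, 3396 and 5086 CPM at 0 µM (log2 change -1.30, SE 0.216, adjusted p = 0.000306). ACTB, the other common reference gene, averaged 2962 ± 262 CPM at 10 µM and 2095 ± 262 CPM at 0 µM, and its rise was lost without 0 µM replicate 1 or 3 and without 10 µM replicate 1 or 3 (adjusted p = 0.0357 with all libraries).

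Outside protein-coding genes, the RNA SCAT8 had the most reads among the 5 largest rises, with 56.5, 45.3 and 49.2 CPM at 10 µM, against 0.406, 0.257 and 0.333 CPM at 0 µM (log2 change 7.24, SE 0.488, adjusted p = 3.94e-07). DIRC3-AS1 was at least 42.5-fold higher, and LINC01549 and LINC03040 were at least 51.7-fold and 64.7-fold lower. RN7SL471P, a copy of the abundant RNA 7SL, was read at 2.56, 1.56 and 6.49 CPM at 10 µM, against 0, 0 and 0 CPM at 0 µM, and its reads may belong to other copies. Among 1470 lncRNA genes tested 281 rose and 295 fell, 19.1% and 20.1%, against 27.2% and 28.8% of 13130 protein-coding genes.

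The genes lost at 10 µM were counted as those that fell with a mean of at least 1 CPM at 0 µM and under 0.1 CPM at 10 µM. They numbered 146 of 13617 tested genes at that level at 0 µM, and 93 were protein-coding. For 13 no read was counted at 10 µM, among them CA9, FABP2, ARG1, MEP1A, an intestinal and kidney protease (at least 177-fold lower), and ANGPTL1 (at least 149.9-fold lower).

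Markers of other cell types gave no common direction. Of 20 leukocyte markers 8 passed the filter; CD79A, a B cell receptor chain, averaged 27.8 ± 14.5 CPM at 10 µM and 0.6 ± 0.255 CPM at 0 µM, while LYZ, lysozyme, averaged 73.4 ± 15.7 CPM at 10 µM and 2746 ± 611 CPM at 0 µM and CD14 and CD4 were among the other falls. CD8A rose (1.82 CPM at 10 µM against 0.472 CPM at 0 µM). The summed level of the leukocyte list was 93.9, 108 and 123 CPM at 10 µM, against 2338, 2474 and 3464 CPM at 0 µM, nearly all of it LYZ at 0 µM. Of 14 fibroblast and stellate markers 4 were tested, none rose, and PDGFRB, PDGF receptor beta, averaged 0.268 ± 0.0405 CPM at 10 µM and 11.9 ± 9.51 CPM at 0 µM; ACTA2 and RGS5 fell too, RGS5 not without 0 µM replicate 1 or 10 µM replicate 1 or 2. Of 12 cholangiocyte and epithelial markers 8 were tested, and KRT19 rose while SPP1 (20.7 CPM at 10 µM against 726 CPM at 0 µM), SOX9, ANXA4 and PROM1 fell. Of 13 endothelial markers 6 were tested, ESAM rose, VWF fell, and PECAM1 averaged 0.185 ± 0.0724 CPM at 10 µM and 0.409 ± 0.244 CPM at 0 µM and passed when 0 µM replicate 2 was left out. Without 0 µM replicate 3, the rises were 2 in the cholangiocyte list and 3 in the endothelial list, and the endothelial falls were 2 without 0 µM replicate 2.

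Promoter accessibility in the ATAC libraries of the same doses is a measurement apart from the RNA. Of 19763 peaks that the deposited annotation calls promoter, 4060 rose (20.5%) and 2943 fell (14.9%) at 10 µM, and 2542 rose without 10 µM replicate 1. Each gene was given its nearest promoter peak, which may lie at another start site than the one printed above. Among genes that rose in RNA and had such a peak (2827), the peak rose in 27.7% and fell in 4.46%. Among those that rose 4-fold or more (493) it rose in 53.1% and fell in 6.49%. Of the 35 switched-on genes with a peak, 23 had a peak that rose and 1 a peak that fell. Among genes that fell in RNA (3187), the peak rose in 10.8% and fell in 22.2%, and among those that fell 4-fold or more (1100) it rose in 8.09% and fell in 42%. Of the 50 genes lost at 10 µM with a peak, 41 had a peak that fell and 3 a peak that rose. Over all 10947 tested genes with a peak, the shares were 18.3% and 11.2%.

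**Figure D3:**
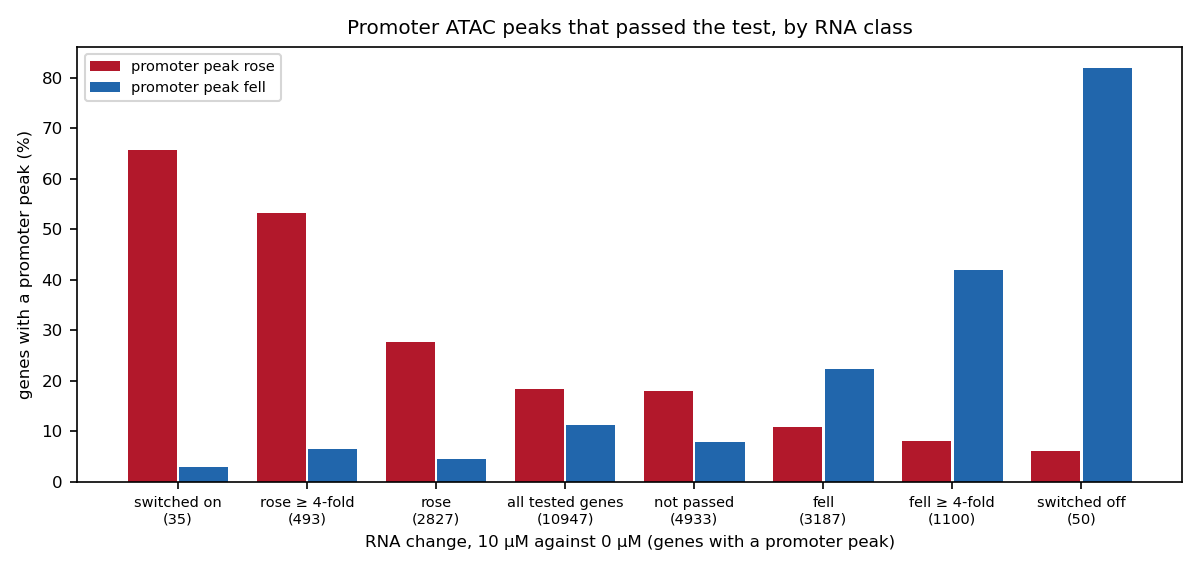
Promoter ATAC peaks by RNA class. Bars, on an axis that starts at 0, give the percent of genes with a promoter peak whose peak rose (red) or fell (blue) at 10 µM against 0 µM, and the number of genes with a peak stands in parentheses under each class. The red bars are highest for switched-on genes, 65.7%, and the blue bars highest for switched-off genes, 82%.

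Lists whose RNA fell differed in what their promoters did. Of 39 secreted liver protein genes with a promoter peak, the peak fell in 30 and rose in none (median log2 change -1.19). The AHSG peak (chr3:186612588-186613088), which covers most of the printed promoter, had 2.55 and 6.31 CPM at 10 µM, against 29.6, 29.1 and 26.7 CPM at 0 µM (log2 change -2.80, SE 0.237, adjusted p = 7.70e-12). Of 46 mitosis genes with a peak, it fell in 4 and rose in 6 (median 0.02), and of 61 ribosomal protein genes it fell in none and rose in 18 (median 0.27). Of 25 cytochrome P450 and conjugating enzyme genes with a peak it fell in 11 and rose in 2 (median -0.30), of 29 histone genes in 8 and 3 (median -0.12), and of 18 apolipoprotein and lipid transport genes in 8 and 4 (median -0.06). Lists with more rises than falls in RNA differed as well. The AP-1 list had 16 of 22 peaks higher and none lower, and the cytoskeleton list 15 of 30 higher and 1 lower. Heat shock genes had 8 of 18 higher and none lower, and the BCL2 family 8 of 15 higher and 1 lower. In the integrated stress response 10 of 38 peaks were higher and 3 lower. Genes that build ribosomes had 5 of 33 higher and none lower. In the list of death receptors, ligands and caspases, 1 of 25 was higher and 4 lower.

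The genes with the first 5 printed promoters were chosen because their ATAC peak over the window rose, so its change is a description. The NTNG1 peak (chr1:107139899-107140399) had 13.9 and 12 CPM at 10 µM, against 4.37, 2.58 and 3.03 CPM at 0 µM (log2 change 2.02, SE 0.266, adjusted p = 5.78e-08). The ADGRF4 peak (chr6:47698465-47698965) had 37.3 and 42.2 CPM at 10 µM, against 2.18, 2.72 and 4.54 CPM at 0 µM (log2 change 3.63, SE 0.215, adjusted p = 5.99e-15). The BCL2A1 peak (chr15:79970891-79971391) had 20.7 and 25 CPM at 10 µM, against 2.42, 1.77 and 1.89 CPM at 0 µM (log2 change 3.50, SE 0.253, adjusted p = 2.94e-13). The KLHL29 and SNPH peaks, over CpG-rich windows, had log2 changes of 1.23 and 0.55.

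Over all protein-coding genes with a RefSeq promoter window, those with fewest CpG were lower in RNA, with no steady trend above 10 CpG. Of 696 genes with 0 to 4 CpG, 20.4% rose and 39.7% fell (median log2 change -0.53), and of 742 with 5 to 9 CpG, 22.5% rose and 40.3% fell (median -0.44). Of 1803 genes with 10 to 19 CpG, 28.6% rose and 27.4% fell (median 0.08), and of 3431 with 20 to 29 CpG, 30.1% rose and 24.8% fell (median 0.14). Of 4083 genes with 30 or more CpG, 27.8% rose and 27.4% fell (median 0.03). The median number was 18 in genes that fell 4-fold or more, 24.5 in switched-on genes and 26 in all. Short genes were lower too: of 597 genes under 3 kb, 14.7% rose and 40.5% fell (median -0.48), against 30.3% and 25.9% of 4148 genes between 30 and 100 kb (median 0.13). These are descriptions over genes, with no test.

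Motif letters were counted in the same 300-base windows on both strands. TTTGAA was found in 34 of 51 mitosis promoters (66.7%), in none of 36 promoters of the DNA replication list, and in 9.97% of the 10755 windows of tested protein-coding genes. It was also found in 12 of 39 promoters of secreted liver proteins (30.8%), AHSG among them, in 22.2% of AP-1 list promoters and in 17% of genes that fell 4-fold or more. CCAAT was found in 76.5% of mitosis promoters, 55.6% of replication promoters and 36.6% of all tested. TGANTCA, where N is any base, is a pattern that takes in the AP-1 site but is wider than it. It was found in 8.35% of promoters of genes that rose 4-fold or more, 4.82% of those that fell as much, and 4.51% of all tested. CAAAGTCCA was found in 16 of 1079 promoters of genes that fell 4-fold or more (1.48%), in none of 647 of those that rose as much, and in 0.316% of all tested. In the list of secreted liver proteins it was found in 2 of 39 promoters (5.13%), those of AHSG and F10. Over all 27305 windows of the RefSeq table the shares were 15.4% for TTTGAA, 35.7% for CCAAT, 7.76% for TGANTCA and 0.359% for CAAAGTCCA. A base may count for more than 1 motif, and a match is a description of letters and not a bound site.

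The lower dose of 2 µM was compared with the same 0 µM libraries, so the values of both doses are given side by side only. At 2 µM 611 genes rose (3.22%) and 202 fell (1.06%). The median log2 change of secreted liver proteins was -0.16 at 2 µM and -5.02 at 10 µM, that of mitosis genes -0.43 and -3.38, and that of AP-1 genes -0.16 and 1.37. The test of the difference is the comparison of the 10 µM with the 2 µM libraries, in which 3193 genes were higher (16.8%) and 4112 lower (21.6%) at 10 µM. Of 55 secreted liver proteins 53 were lower at 10 than at 2 µM, of 59 mitosis genes 58, and of 25 AP-1 genes 16 were higher. Of the 128 genes switched on at 10 µM, 55 also rose at 2 µM. Across 0, 2 and 10 µM, ALB averaged 18769.5, 7183 and 821, TOP2A 768, 581 and 27 and SQSTM1 297, 556 and 2116 CPM.

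**Figure D4:**
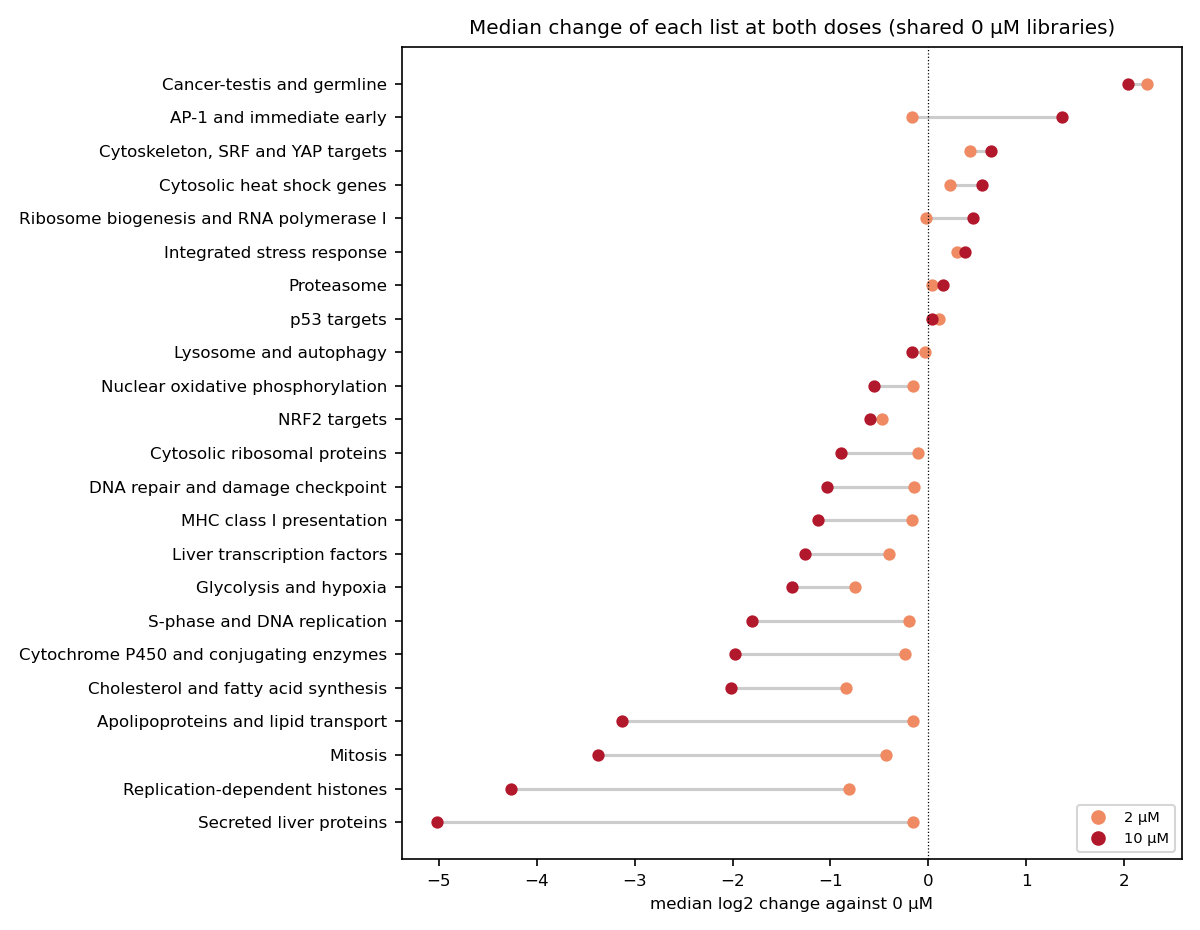
Median log2 change of 23 gene lists against 0 µM at 2 µM (orange) and 10 µM (red); both medians of a list use the same 3 libraries at 0 µM. The 10 µM points reach -5.02 for secreted liver proteins, where the 2 µM point is at -0.16, and 1.37 for AP-1 genes, where it is at -0.16.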

How the data were processed

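RNA-seq was measured in 9 libraries and ATAC-seq in 8. The authors deposited whole-number read counts per gene and per 501-base peak, both used here, and size-factor normalized counts (a signal, per the file headers), used only to check columns: there 10 µM replicates 2 and 3 hold each other's counts, and the raw columns were used as labelled. The submitters' processing notes name HISAT2 2.2.1, HTSeq 2.0.4, DESeq2 1.42.1, DiffBind 3.12.0 and hg38. Which step each served, the strand setting and the peak caller: not given in the sources used here.

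Both count tables went through edgeR 4.0.16 (R 4.3.3): TMM scaling, filterByExpr, and the quasi-likelihood F-test in 1 fit over the 9 RNA libraries (ATAC: 8), with Benjamini-Hochberg adjustment over all 18999 genes or all peaks and a threshold of 0.05. SE is the log2 change divided by the root of F, and the prior count was 0.125. The script was tested on simulated data. Folds against 0 counts use a floor of 3 counts over the group, and intervals are exact at 95%; both cover counting error only. Gene names came from a reference list keyed by gene ID for 62666 of 63187 IDs. RefSeq gave biotype and position by gene name, for 40526 genes.

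The comparison, the 46 gene lists and the tests were chosen with earlier results of these data known. Named genes are BCL2A1, SQOR, DNMT1, DNMT3A, DNMT3B and UHRF1, the 15 protein-coding genes per direction with the largest log2 change and the 15 with the largest CPM difference (past the threshold, at least 1 CPM, no overlap), the 5 other genes per direction, and up to 6 members per list with the smallest adjusted p; not all of them are printed. Chosen after their values were seen were F10, F12, the members named for counts of 5 or fewer, BCL2L2, CT83, H19, MEG3, MMP1, PHGDH, PHLDA2, PSAT1, SLC7A11, TKT, TRIB3, HSPE1, AKR1B1, AKR1C2, ATF3, ATF4, BAX, BMF, CHAC1, DDIT3, MAFF and the MAGE genes. The overlap of promoter window and peak, the promoters of BCL2A1, NUF2, CENPA and AHSG, and the motif searches were chosen likewise. Alternatives were DESeq2 1.42.0, total counts, no filter, replicate blocks, 6 libraries alone and each library left out.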

Additional observations from a re-analysis of the deposited data

How the results depend on the processing

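The numbers of RNA rises and falls, at any size and at a doubling or more, and of genes higher or lower than at 2 µM stayed within 1.5 times of those reported under every alternative run. Leaving out 1 library gave 3541 to 4589 rises and 3937 to 4840 falls. DESeq2 gave 4641 and 4906, total counts alone 5788 and 3747, no filter 4574 and 4908, and the 6 libraries of both doses 4346 and 4554. Deviations of same-numbered libraries from the mean of their dose had correlations of 0.011, -0.026 and -0.065. Whether these libraries shared a batch or culture cannot be told from 3 such values. The correlations and both block fits use the raw numbering, which is in doubt for 10 µM replicates 2 and 3, as the processing states. With the replicate block over both doses there were 4107 rises and 4166 falls, and with the block over all doses 4591 and 4770. In the 2-dose block 2 oncofetal genes rose in place of 6, the matrix median was 0.45, and the calls of DNMT3A, ACTB, BMF and RGS5 were lost. List members that missed the filter on counts in a fit were counted as not called. The oncofetal drop includes such members, as GRB10, H19, PHLDA2 and MEG3 lost no call in any fit that tested them. Promoter peaks that rose numbered 4060 as reported, 2591 with DESeq2, 2130 with the replicate block, and 2542 to 3917 when 1 ATAC library was left out; the cause was not tested. Of 1104 list counts, 1039 stayed within 1.5 times; under total counts 4 pyrimidine genes, 6 amino acid transporters and 3 genes of the unfolded protein response rose. The median changed sign under total counts in 5 lists, among them DNA methylation (0.20), lysosome (0.09) and heterochromatin (0.01), and when 1 library was left out in 8. Of the genes named, 21 of 256 lost a call under at least 1 alternative, 2 gained one, and 0 reversed direction with a call. Alternatives that did not test a gene were left out for that gene. With 3 libraries a dose and between 35553052 and 46430168 reads in each, genes with a few reads are limited by counting error.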

Other observations

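Metallothioneins, small proteins that bind zinc and copper, are not described above. Of 7 tested, 1 rose (14.3%) and 3 fell (42.9%), against 23% and 25.1% of all genes. The median log2 change was -1.49, and 0.21 without 0 µM replicate 2. MT2A had 227, 163 and 216 CPM at 10 µM, against 26.9, 93.8 and 128 CPM at 0 µM (log2 change 1.29, SE 0.398, adjusted p = 0.017). MT1G had 0.431, 1.04 and 0.789 CPM at 10 µM, against 3.63, 31.7 and 7.14 CPM at 0 µM (log2 change -4.22, SE 1, adjusted p = 0.00379), and MT1F averaged 0.643 ± 0.214 CPM at 10 µM and 7.22 ± 6.28 CPM at 0 µM (log2 change -3.48, SE 0.726, adjusted p = 0.0016). The genes are close copies and may share reads, so the split between them is uncertain.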
